A study of Mus musculus with 13 samples.

Results

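The genes described here encode the proteins of the cytosolic ribosome, the particle that translates nuclear mRNAs. They were taken from a table of 21073 mouse genes by symbol: Rpl or Rps followed by a digit, or Rplp0, Rplp1, Rplp2 or Rpsa, with a level of at least 5 in some library in RPKM, the number of reads per kilobase of exon scaled to the size of the library. Of 132 symbols of that form, 32 are pseudogenes and 10 are S6 kinases, and both kinds were left out. The 87 genes that remained are 77 core ribosomal protein genes (46 of the large and 31 of the small subunit), 7 paralogues with names ending in l, 2 retrogenes with names ending in rt, and Rps19bp1. Rps19bp1 encodes a binding partner of a ribosomal protein and not a subunit, and at 13.2 to 24.7 RPKM it was kept apart. Just inside the limit was Rpl39, with a highest value of 6.67 RPKM, and just outside was Rpl39l, with a highest value of 2.38 RPKM. The other paralogues left out were Rpl3l and Rpl10l, with highest values of 0.653 and 0.0397 RPKM.

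The 13 RNA-seq libraries came from C57BL/6J mice studied in experimental autoimmune encephalomyelitis (EAE), a mouse model of multiple sclerosis. DKI mice carry knock-in changes in both Stat5a and Stat5b that block tetramers of the transcription factor STAT5 and leave its dimers. CD4+ T cells were sorted after spleen and lymph node cells, taken on day 14 after MOG35-55 immunization, had been expanded for 3 days with the peptide under Th17 conditions. In one set of these cultures, DKI Th17 cells grown with the chemokine CCL17 (n = 3) were set against DKI Th17 cells grown without it (n = 3). In the other set, DKI Th17 cells (n = 2) were set against WT Th17 cells (n = 2). The 3 remaining libraries, 1 each, are spinal cord antigen-presenting cells derived from monocytes (cord APCs), spinal cord monocytes and bone marrow monocytes, all sorted from DKI mice on day 14 of EAE induced with MOG35-55 in complete Freund's adjuvant and pertussis toxin. No WT myeloid library was analysed here, so nothing measured in the myeloid cells bears on the genotype. The number of animals behind a library is not given in the sources used here, so p-values measure the spread between libraries, which may be technical.

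Each cytosolic ribosome has a small subunit, which reads the mRNA, and a large subunit, which joins amino acids. Nearly every protein of both subunits is needed once in each particle, and cells that grow and divide make more ribosomes, largely under the control of Myc and of the kinase complex mTORC1. The mRNAs of these proteins belong to the TOP class: they begin with a C followed by a run of pyrimidines, through which mTORC1 and the protein Larp1 set how well they are translated. RNA-seq measures the amount of mRNA and not its translation. In T cells, activation and clonal growth come with a large increase in ribosome production, while monocytes are non-dividing or slowly dividing cells. Mammalian genomes also hold many processed copies of ribosomal protein genes, made from their spliced mRNAs, and these share exon sequence with the parents.

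That sharing bears on every level given here, so the sequences come first. Rps27, a zinc-binding small-subunit protein gene at chr3:90212728-90213615 on the minus strand of GRCm38, has the same 252-base coding sequence as Rps27rt, a retrogene at chr9:114982456-114982707 on the minus strand. The pair differs at 0 positions, and 1 sequence stands for both, with the start codon in capitals:
Rps27: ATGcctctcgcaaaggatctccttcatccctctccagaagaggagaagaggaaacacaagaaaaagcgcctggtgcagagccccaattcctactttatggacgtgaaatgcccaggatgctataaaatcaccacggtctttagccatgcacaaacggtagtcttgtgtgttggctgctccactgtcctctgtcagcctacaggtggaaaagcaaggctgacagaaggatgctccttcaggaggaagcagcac
The paralogue Rpl36al at chr12:69182819-69183136 (minus strand, 1 coding exon) and its parent Rpl36a at chrX:134585717-134587954 (plus strand, 5 coding exons) show the other case. They are distinct at 39 of 318 coding bases and encode a large-subunit protein that lies near the exit site for transfer RNA. The first 150 bases of each hold 23 of the differences, in capitals:
Rpl36al: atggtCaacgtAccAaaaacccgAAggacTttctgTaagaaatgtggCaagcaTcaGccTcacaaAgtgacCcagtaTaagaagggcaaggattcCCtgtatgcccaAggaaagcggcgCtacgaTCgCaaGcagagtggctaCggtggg
Rpl36a: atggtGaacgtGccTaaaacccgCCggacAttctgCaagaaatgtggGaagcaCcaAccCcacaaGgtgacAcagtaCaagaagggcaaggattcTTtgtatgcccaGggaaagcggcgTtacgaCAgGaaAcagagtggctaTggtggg

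Sharing of this kind was the rule. When each coding sequence was read in windows of 50 bases, 76 of the 77 core genes had at least 1 window that also occurs in the transcript of another gene in GENCODE release M21, and the median gene had 90.3% of its windows shared. Rps27, Rps29, Rps6, Rpl36a and Rpl10 had 100% shared, and Rpl8, Rps3 and Rpl4 had 8.73%, 8.09% and 20.3%. Recorded levels followed this share: over the 77 genes Spearman's rho between the percentage of windows shared and the mean log2(RPKM + 1) was -0.72. This is a description across genes, which are not independent and share all 13 libraries. The 11 genes with at most 50% of windows shared had a median level of 9.35 on the log2(RPKM + 1) scale (7.09 to 10.41). The 39 genes between these bounds had a median of 7.02, and the 27 genes with 100% shared had a median of 5.05 (3.15 to 7.14). The treatment of reads that match several genes is not given in the sources used here, and its part in the levels was not tested. Differences between genes in recorded level are therefore given below as values of the deposited table and not as the abundance of the mRNAs.

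**Figure D1:**
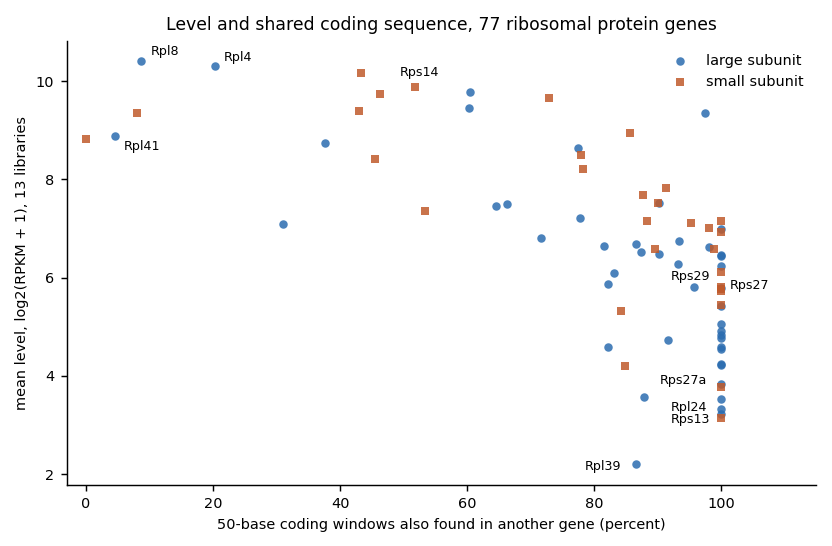
Mean level of each of the 77 core ribosomal protein genes over 13 libraries, in log2(RPKM + 1), against the percentage of its 50-base coding windows that also occur in another gene's transcript. The 27 genes at 100% lie between 3.15 and 7.14, and the 11 genes at 50% or less lie between 7.09 and 10.41.

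For several genes a copy carried more reads than the parent. Rps27 had 35.7 to 96.0 RPKM over the 13 libraries, while its identical retrogene Rps27rt had 624 to 1777 RPKM. Rps6, the small-subunit protein phosphorylated by S6 kinases, had 32.5 to 55.9 RPKM against 423 to 1120 RPKM for Rps6-ps4. Rpl37, a large-subunit protein gene, had 17.2 to 28.7 RPKM against 425 to 859 RPKM for Rpl37rt. In each of these 3 pairs the copy lay above the parent in all 13 libraries. The same held for 8 of the 32 pseudogene rows, among them Rps15a-ps5, Rpl31-ps11 and Rps12-ps24. Of the 32 pseudogene rows, 18 reached 5 RPKM in some library and 14 did not. Of the RPKM summed over a parent and its named copies, Rps27 held 3.31 to 6.57%, Rps6 4.07 to 7.47%, Rpl37 2.77 to 4.43% and Rps12 8.27 to 26.2%. Values for these parents are uncertain, and the summed value is given beside some of the comparisons that adding the copies back alters.

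**Figure D2:**
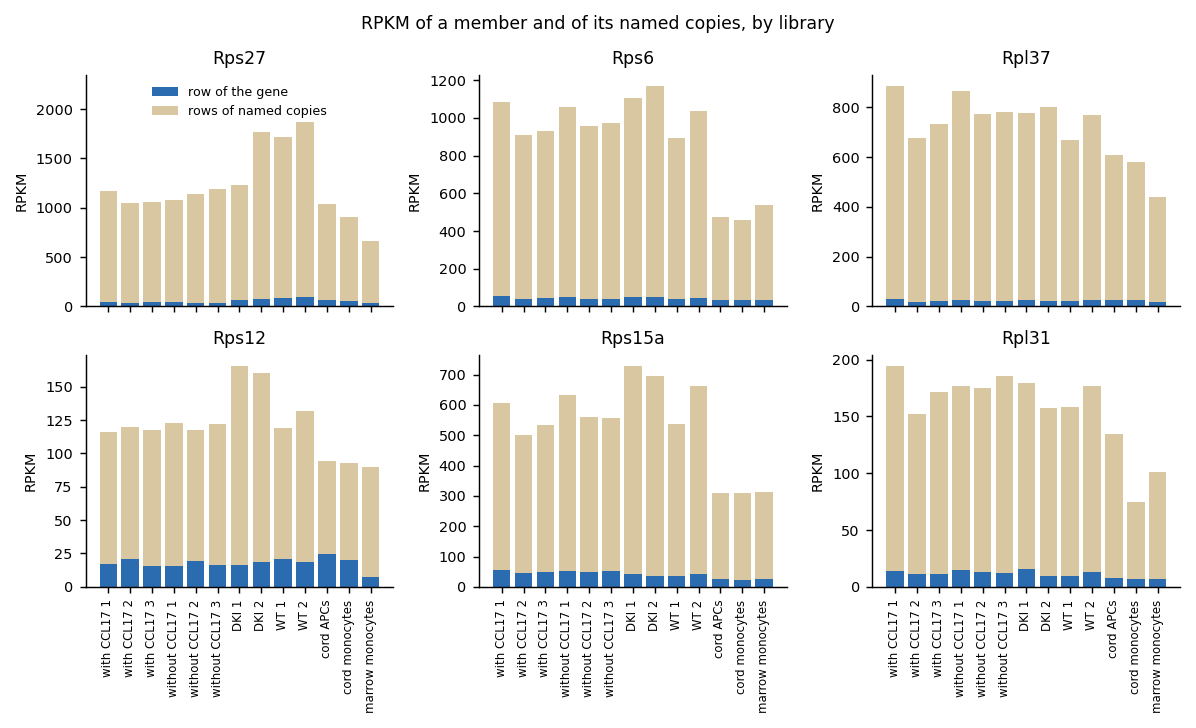
RPKM in each of the 13 libraries for 6 ribosomal protein genes (blue) with the rows of their named copies stacked on top (tan); each panel's axis starts at 0. The gene's own row is a small part of the sum in every library, such as 3.31 to 6.57% for Rps27 and 8.27 to 26.2% for Rps12.

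Recorded levels of the core genes were far apart. The 5 highest by mean were Rpl8 (1414 RPKM, range 780 to 1834), Rpl4 (1347, 551 to 1751), Rps15 (1184, 691 to 1444), Rps14 (961, 619 to 1189) and Rplp1 (932, 462 to 1282). The 5 lowest were Rpl39 (3.90 RPKM, 1.23 to 6.67), Rps13 (8.29, 4.10 to 13.4), Rpl24 (8.55, 3.47 to 11.6), Rpl11 (9.19, 5.16 to 14.6) and Rpl31 (11.3, 6.87 to 15.3). Rpl39, which lines the exit tunnel of the large subunit, reached 5 RPKM only in the 2 DKI Th17 libraries and in replicate 1 without CCL17. Rpl5 and Rpl11, large-subunit proteins that can also bind the p53 inhibitor Mdm2, had 6.74 to 17.4 and 5.16 to 14.6 RPKM. Rps3 had 404 to 813 RPKM, Rps24 189 to 351, Rps4x 111 to 238 and Rps19, mutated in human Diamond-Blackfan anaemia, 132 to 197. Rpl13a had 340 to 926 RPKM, and Rplp0, which anchors the stalk that recruits elongation factors, had 361 to 939.

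The spread across libraries differed from member to member. Rpl10, a late-joining large-subunit protein, had the smallest standard deviation over the 13 libraries, 0.13 on the log2(RPKM + 1) scale, and ran from 113 to 151 RPKM. Rps23 and Rps9 followed at 0.15, Rpl38 at 0.16 and Rpl28 at 0.18. Rpl38, which mouse embryos need for translation of Hox mRNAs, had 21.1 to 31.6 RPKM. Rps29 stood at the other end, with a standard deviation of 1.11 and a range of 3.36 log2 units, ahead of Rpl36a (0.68), Rpsa (0.61), Rpl4 (0.59) and Rpl12 (0.58). Rps29 had 40.1, 23.0 and 20.1 RPKM in the DKI cultures with CCL17, 46.6, 22.6 and 15.2 in those without, 99.9 and 105 in the DKI cultures of the other set, and 80.0 and 110 in the WT cultures. It had 99.9 RPKM in cord APCs, 165 in cord monocytes and 87.6 in marrow monocytes. The 6 libraries of the CCL17 set were thus below the 7 other libraries.

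**Figure D3:**
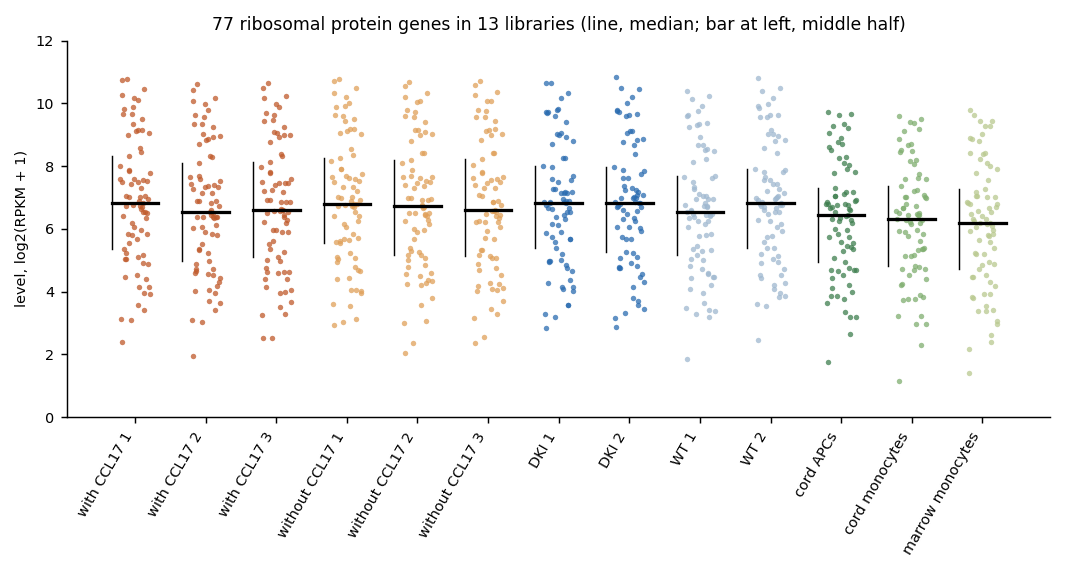
Level of the 77 core ribosomal protein genes in each of the 13 libraries, in log2(RPKM + 1); each point is a gene, the thick line is the median and the thin bar spans the middle 50% of genes. Medians were 6.53 to 6.83 in the Th17 libraries, 6.44 in cord APCs, 6.32 in cord monocytes and 6.20 in marrow monocytes.

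The paralogues did not follow one pattern. Rpl36al had 98.2 to 141 RPKM and lay above its parent Rpl36a (3.88 to 18.2 RPKM) in all 13 libraries, with 87.7% of coding bases identical (279 of 318). Both had 100% of their coding windows shared with other genes, so this order too is one of recorded values. Rps27l, a p53-responsive relative of Rps27 with 75% identity (189 of 252 bases), had 57.0 to 114 RPKM and lay above Rps27 in 11 libraries. Rpl22l1 had 59.2 to 153 RPKM, below Rpl22 (85.5 to 170 RPKM) in all 13, with 70.2% identity (257 of 366). Rpl22 is known in mice for its need in the development of alpha-beta T cells, and Rpl22l1 is known to increase when Rpl22 is lost in mice. Rpl7l1 had 17.96 to 45.4 RPKM and 62.6% identity with Rpl7 (443 of 708 bases). Rpl6l, annotated as a pseudogene in RefSeq, had 75.2 to 160 RPKM, above Rpl6 in all 13 libraries, and Rpl32l had 126 to 282 RPKM, below Rpl32 in all 13. Rps4l, annotated as a transcribed pseudogene, was the paralogue with the largest contrast between cell types: it had 0.468 to 2.56 RPKM in the 10 Th17 libraries, against 18.9 in cord APCs, 17.4 in cord monocytes and 10.8 in marrow monocytes. Rps4l met the 5 RPKM limit through the myeloid libraries alone.

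The libraries held an estimated 12600000 to 31800000 assigned reads. The summed RPKM of 8 T cell markers was 2096 to 4411 in the Th17 libraries, 20.5 in cord APCs, 19.6 in cord monocytes and 0.248 in marrow monocytes, where Cd3e and Cd4 were listed at 0. Summed monocyte markers, 7 genes, were 12801 in cord APCs, 13163 in cord monocytes and 20591 in marrow monocytes. None of 4 microglia markers reached 1 RPKM in a Th17 library, while all 4 did in both cord libraries and 3 did in marrow monocytes. Their sum was 290 RPKM in cord APCs, 99.6 in cord monocytes and 56.0 in marrow monocytes. Summed neutrophil markers, 4 genes, were 460 RPKM in cord APCs, 457 in cord monocytes and 3620 in marrow monocytes. The part of such cells in the comparisons of myeloid libraries was not tested. B cell, neutrophil and monocyte markers were present in Th17 libraries and moved with the culture set, and their values stand beside that comparison.

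Between DKI Th17 cells and the cord myeloid cells, the core genes were higher in the T cells for the most part. They made up 4.96% ± 0.41 of all RPKM with CCL17 (SD, n = 3), 5.14% ± 0.27 without (n = 3) and 5.11% ± 0.07 in the DKI cultures of the other set (n = 2), against 2.74% in cord APCs and 2.56% in cord monocytes. WT Th17 cells had 4.90% ± 0.64 (n = 2) and marrow monocytes had 3.00%. These are bulk libraries, so fewer cells of a type and less RNA per cell cannot be told apart. Each cord group is 1 library, and cell type, organ and culture differ together, so no test was made.

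The log2 difference is the mean of the 3 DKI Th17 groups minus the mean of both cord libraries. It was positive for 69 of the 77 core genes, where 74.8% of all genes tested were positive, and the core median was 0.61. The median over all 9806 genes tested was 0.74, so by the median the ribosomal protein genes as a list were not above the other genes. With values centred on each library's median gene, the core median was -0.11 and the direction of the list as a whole turned. Of the core genes, 15 were at least 2-fold higher in DKI Th17 cells, where 39.3% of all genes were, and 1 was at least 2-fold lower, where 12.5% of all genes were. All 8 DKI Th17 libraries lay above both cord libraries for 51 core genes, with 63.6% of all genes doing so, and below both for 2 core genes, with 17.8% of all genes doing so. The 15 core genes past 2-fold are a smaller share of their list than 39.3%, and the 51 without overlap are a share close to that of all genes.

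The difference was largest for Rpsa, a small-subunit protein also known as the laminin receptor precursor, at 1.55 on the log2 scale. Rpsa had 112 to 146 RPKM in the 8 DKI Th17 libraries, against 41.9 in cord APCs and 39.7 in cord monocytes. Rpl4 followed with 1.47, with 1447 to 1751 RPKM in DKI Th17 libraries, against 616 in cord APCs and 551 in cord monocytes. The groups did not overlap for either gene. Rpl36a, at 1.45, had 11.0 to 18.2 RPKM in DKI Th17 libraries, against 5.22 in cord APCs and 3.88 in cord monocytes. Next came Rps18 at 1.31 and Rpl14 at 1.25. With its named copy added Rps6 was at 1.14, past 2-fold, in place of 0.49. With both libraries of WT Th17 cells in place of the DKI ones, a substitution made after seeing the data, the core median was 0.48.

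A few core genes ran the other way. Rps29 was lower by 1.62 log2 units on this average, yet the DKI cultures of the WT set had 99.9 and 105 RPKM, against 99.9 in cord APCs and 165 in cord monocytes. The lower Th17 values came from the 6 libraries of the CCL17 set. Rps13 had 4.10 to 9.04 RPKM in DKI Th17 libraries, against 13.4 in cord APCs and 12.5 in cord monocytes, a difference of -0.87. With its named copy added the Rps13 difference was -0.45. Rpl10 had 113 to 141 RPKM in DKI Th17 libraries, against 144 in cord APCs and 151 in cord monocytes, a difference of -0.24. These were the 2 genes whose DKI Th17 libraries all lay below both cord libraries. Rps12 (-0.35) and Rps27 (-0.28) also had negative differences, with overlapping groups. With named copies added, those sums were 0.49 for Rps12 and 0.34 for Rps27, so the sign of both parents depends on how reads fall between parent and copies. The 11 genes with few shared windows had a median of 0.84. Among the paralogues Rps4l had a difference of -2.76 and Rpl7l1 one of 1.16.

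**Figure D4:**
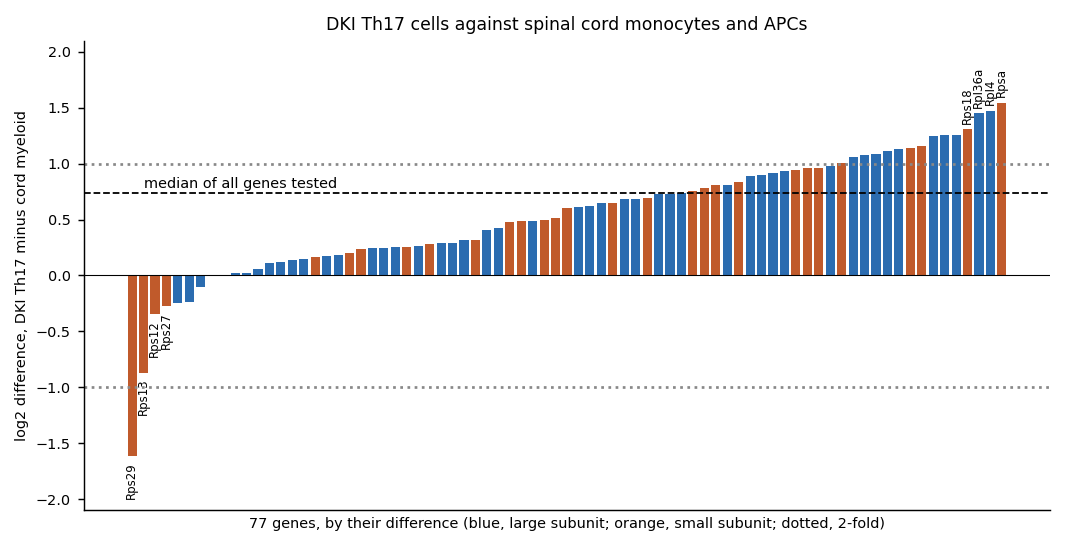
Log2 difference in log2(RPKM + 1) between the DKI Th17 groups and the cord myeloid libraries, 1 bar for each of the 77 core genes, ordered by size, with the large subunit in blue and the small subunit in orange. The dashed line is the median of all genes tested (0.74); Rpsa (1.55) is at one end and Rps29 (-1.62) at the other.

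Lists of genes that build ribosomes had larger median differences between these cells than the 0.61 of the ribosomal proteins. Of 41 genes for rRNA processing and assembly, 30 were at least 2-fold higher in DKI Th17 cells and 0 were lower, with a median of 1.53. Dkc1 (2.80), Nop58 (2.46) and Gar1 (2.35), parts of the small nucleolar particles that modify rRNA, led the list. RNA polymerase I genes were 2-fold higher for 9 of 14 (median 1.24), initiation factors for 12 of 22 (median 1.05), and other TOP mRNAs for 8 of 17 (median 0.97). Mitochondrial ribosomal proteins were 2-fold higher for 29 of 74, with 0 lower and a median of 0.86, a share level with the 39.3% of all genes. In the list of Myc and mTORC1 regulators 9 of 24 were higher and 1 was lower, and Myc itself, the transcription factor that drives ribosome production, had a difference of 2.58. Of 10 genes tied to nucleolar stress and p53, 5 were higher and 2 were lower. All these figures stand beside a median of 0.74 over all genes, of which 39.3% were 2-fold higher and 12.5% 2-fold lower, and the cause of that shift was not tested.

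Between cord and marrow monocytes, the core genes stayed close together while the table as a whole did not. The median core difference (cord minus marrow) was 0.03 over 75 genes, and the median over all 8182 genes was -0.37. Of the core genes 40 were positive, where 31.5% of all genes were. Only 2 core genes were at least 2-fold higher in cord monocytes, where 11.5% of all genes were, and 0 were at least 2-fold lower, where 19% of all genes were. Each group is 1 library, so there is no replicate check. The intervals below are 95% Clopper-Pearson intervals on estimated read numbers and cover counting error only.

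Rps12 was the higher of the pair, with 20.3 RPKM in cord monocytes and 7.42 in marrow monocytes, a ratio of 2.74 (2.26 to 3.34). Rpl24 had 8.44 RPKM in cord monocytes and 3.47 in marrow monocytes, a ratio of 2.43 (1.83 to 3.24). Rpl24 met the limit of 5 RPKM only in cord monocytes. Its place in the count above thus depends on the library in which it was higher. Rps12 and Rpl24 are both low rows, and with its 10 named copies added the Rps12 difference was 0.05 on the log2 scale in place of 1.34. Rps29 (0.90), Rpl17 (0.79) and Rps27 (0.72) came next. With named copies added Rpl17 was at 0.62 and Rps27 at 0.45. Rpsa lay lowest at -0.63, with 39.7 RPKM in cord monocytes and 62.0 in marrow monocytes, a ratio of 0.640 (0.611 to 0.671). Rpl4 followed at -0.53, with 551 RPKM in cord monocytes and 795 in marrow monocytes, with Rpl5 at -0.44 and Rplp0 at -0.35. Rpsa and Rpl4, highest in Th17 cells relative to cord cells, were thus also lower in cord than in marrow monocytes. Both of these comparisons use the cord monocyte library. The paralogues Rpl7l1 (-0.72) and Rps27l (-0.52) were lower in cord monocytes, and Rps4l (0.64) was higher. For the 11 genes with few shared windows the median was -0.14, and with values centred on the median gene the core median was 0.33.

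The growth regulators around them were further apart in these 2 libraries. Ddit4, an inhibitor of mTORC1, was higher in cord monocytes by 3.44 log2 units, and Mxd1, which opposes Myc, by 3.75. Myc was higher by 1.499 and Pdcd4, a translation repressor, lower by a log2 difference of -2.49. The p53 targets Cdkn1a (3.80) and Mdm2 (2.41) were higher in cord monocytes, and with 1 more they made 3 of 9 genes on that list past 2-fold, with 0 lower. Mitochondrial ribosomal proteins had 0 genes higher and 7 of 70 lower, with a median of -0.48, which is close to that of the whole table. The rRNA processing list had 1 higher (Gnl3, 1.36) and 2 lower (among them Dkc1, -1.33) of 39. Initiation factors had 1 higher of 22, other TOP mRNAs 1 lower of 17, and RNA polymerase I genes 0 of 10 in either direction. These counts stand beside 11.5% of all genes 2-fold higher and 19% 2-fold lower.

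Between cord APCs and cord monocytes no core gene passed 2-fold. The median over 76 core genes was 0.12, beside 0.03 over all 7499 genes. Of the core genes 56 were positive, where 55.0% of all genes were. Among all those genes 1.55% were 2-fold or more higher in cord APCs and 0.947% were 2-fold or more lower, so few genes of any kind were that far apart. Rpl3, a protein near the peptidyl transferase centre of the large subunit, was higher by 0.43, with 46.9 RPKM in cord APCs and 34.4 in cord monocytes, a ratio of 1.36 (1.26 to 1.47). Rps3a1 (0.43), Rpl24 (0.41) and Rpl15 (0.41) were close to it. With its 5 named copies added Rpl31 was at 0.84 in place of 0.20. Rps29 was lowest at -0.71, with 99.9 RPKM in cord APCs and 165 in cord monocytes, a ratio of 0.607 (0.560 to 0.658), and Rps10 and Rpl23a were both at -0.35. Summed APC markers, 5 genes, were 14753 RPKM in cord APCs and 7987 RPKM in cord monocytes. Of the other lists, 1 regulator of Myc and mTORC1 passed 2-fold: Mxd1, at -1.004. Npm1, a nucleolar chaperone with a TOP mRNA, was at 0.53, and Fbl, the rRNA methyltransferase, was at 0.39.

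Turning to genotype, no core gene was called between DKI and WT Th17 cells by limma at an adjusted p under 0.05, and 0% of the 11078 genes tested were called higher and 0% lower. The smallest adjusted p of a core gene was 0.209, for Rpl10a. At an unadjusted p under 0.05, 5 core genes were higher in DKI cells (Rplp0, Rpl10a, Rpl29, Rpl15 and Rpl39), with 8.25% of all genes higher, and 1 was lower (Rps27), with 8.71% of all genes lower. The groups did not overlap for 19 core genes that were higher (19.9% of all genes) and for 2 that were lower, Rpl24 and Rps27 (20.1% of all genes). The median core difference was 0.07, beside 0.03 for all genes, and 59 of 77 were positive, where 54.7% of all genes were. Core genes are short, with a median exon length of 977 bases. Over the 2667 shortest genes tested, with exons of 204 to 2035 bases, the median was 0.12, above that of the core genes.

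Rpl39 had the largest positive difference, 0.70 ± 0.31 (SE; limma adjusted p = 0.294). It had 6.14 and 6.36 RPKM in DKI cultures, against 2.63 and 4.47 in WT cultures, and is the lowest of all core rows. Rpl39 met the limit of 5 RPKM only in DKI libraries. Its place here and in the counts above thus depends on the group in which it was higher. Rpl15 (0.43), Rps2 (0.37), Rpl10a (0.35) and Rplp0 (0.32) followed. Rps27 had 69.7 and 77.9 RPKM in DKI cultures, against 88.2 and 96.0 in WT cultures, a difference of -0.32 ± 0.12 (SE; limma adjusted p = 0.238). With its identical copy added the Rps27 difference was -0.28 ± 0.18 (SE; limma adjusted p = 0.437). These sums were 1233 and 1768 RPKM in DKI cultures and 1720 and 1873 in WT cultures, so the groups overlapped. Rpl24 had a difference of -0.32, with 8.67 and 7.89 RPKM in DKI cultures and 10.1 and 11.1 in WT cultures. Among the paralogues Rps27l had 79.8 and 97.7 RPKM in DKI cultures, against 57.0 and 79.4 in WT cultures, a difference of 0.39 (limma adjusted p = 0.256).

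One library stood apart here. WT replicate 1 was the lowest of the 4 libraries for 65 of the 77 core genes. Without it the median core difference was -0.08, and without WT replicate 2 it was 0.23, so the sign of the median depends on which WT library is kept. The other lists had 0 genes called in either direction, with medians of 0.33 for rRNA processing, 0.27 for initiation factors, 0.24 for other TOP mRNAs and 0.19 for mitochondrial ribosomal proteins. Myc was on the list of Myc and mTORC1 regulators, whose median was 0.01.

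For CCL17, no core gene was called between DKI Th17 cells with and without the chemokine, and 0% of the 11297 genes tested were called higher and 0% lower. The smallest adjusted p of a core gene by limma was 0.999. At an unadjusted p under 0.05, 2 core genes were higher with CCL17 (Rpl11 and Rpl17), with 2.12% of all genes higher, and 1 was lower (Rps19), with 1.52% of all genes lower. The groups did not overlap for 1 core gene that was higher (5.2% of all genes) and for 5 that were lower (4.28% of all genes).

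The differences were small and leaned down. The median core difference was -0.07, beside -0.01 for all genes. Of the 77 core genes 12 were positive and 65 negative, where 45.8% of all genes were positive. Over the 2709 shortest genes tested, with exons of 204 to 2033 bases, the median was -0.06, close to that of the core genes. By replicate number, which the labels do not call a pairing, 43 core genes were higher and 34 lower with CCL17 for number 1 (median 0.00). For number 2, 9 were higher and 68 lower (median -0.13), and for number 3, 20 were higher and 57 lower (median -0.06). Replicate 2 with CCL17 was the lowest of the 6 libraries for 57 of the 77 genes, and without it the median was -0.02, as it was without replicate 1 without CCL17. Rps13 (0.24), Rpl11 (0.20), Rpl17 (0.17) and Rps6 (0.13) had the largest positive differences. With named copies added Rpl17 was at 0.01 and Rps6 at -0.03. Rpl11 had 9.56, 9.58 and 8.74 RPKM with CCL17, against 7.80, 7.31 and 8.76 without it, and 1 library of each group was in the range of the other. Rps18 (-0.21), Rpl39 (-0.16), Rpl36a (-0.16) and Rps19 (-0.15) had the largest negative ones. Rps18, a small-subunit head protein, had 257, 202 and 252 RPKM with CCL17, against 288, 272 and 261 without it. In every other list 0 genes were called in either direction.

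The 2 sets of DKI Th17 cultures grown without added CCL17 were set beside each other as a measure of how far like-labelled cultures differ. Here the experiment and the group cannot be told apart. Of the 77 core genes, 11 rose and 5 fell in the cultures without CCL17 from the CCL17 set (called DKI without CCL17) relative to the DKI cultures of the WT set, by limma at an adjusted p under 0.05. Over all 11507 genes tested, 15.4% were called higher and 17.8% lower, so the share of core genes called, 20.8%, was below the 33.2% of all genes. The groups did not overlap for 30 core genes that were higher (26% of all genes) and 22 that were lower (29.6% of all genes). The median core difference was 0.00, beside -0.01 for all genes. Core genes are short, with a median exon length of 977 bases against 2966 over all genes, and with a trend on length removed the split was 4 higher and 23 lower. With quantile normalization it was 9 higher and 11 lower. Leaving out DKI replicate 1, DKI replicate 2, or replicate 2 or 3 without CCL17 gave 4, 6, 7 and 4 higher.

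The fold was largest for Rps29, at -1.97 ± 0.43 (SE; limma adjusted p = 0.0092). It had 46.6, 22.6 and 15.2 RPKM in DKI cultures without CCL17, against 99.9 and 105 in the DKI cultures of the WT set. The groups did not overlap, but the values without CCL17 were themselves wide apart. Rps27 fell by 0.83 (SE 0.11; limma adjusted p = 0.000995), with 45.6, 38.5 and 39.4 RPKM without CCL17, against 69.7 and 77.9 in the other set. With its identical copy added the difference was -0.38, with an adjusted p of 0.110 by limma, and the call was lost. Rps27a, which encodes ubiquitin fused to a small-subunit protein, fell by 0.63 (SE 0.10; limma adjusted p = 0.0023), with 10.7, 10.9 and 9.89 RPKM without CCL17, against 16.8 and 16.8 in the other set. Rpl17 (-0.56) and Rpl10a (-0.45) were the other 2 that fell. Rpl17 held its call with copies added, at -0.33 (limma adjusted p = 0.024).

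Among those that rose was Rps25, a small-subunit protein that some viral mRNAs need for their translation. Rps25 rose by 0.70 (SE 0.13; limma adjusted p = 0.0044), with 178, 168 and 167 RPKM without CCL17, against 106 and 103 in the other set. The groups did not overlap. Both acidic stalk proteins rose, Rplp2 by 0.53 and Rplp1 by 0.51. Rplp2 had 241, 233 and 219 RPKM without CCL17, against 154 and 166 in the other set, while Rplp0, which holds them on the particle, was at 0.09 (limma adjusted p = 0.607). Rpl35a (0.49), Rpl30 (0.43), Rps3a1 (0.41), Rpl23 (0.40), Rpl26 (0.39), Rps15a (0.38) and Rps19 (0.38) were called too. With its 6 named copies added Rps15a was at -0.29 (limma adjusted p = 0.128), so its direction turned, and Rps12 (-0.43) and Rps13 (-0.60) became called as lower. Of the 11 core genes with at most 50% of windows shared, 0 were called in either direction. Of the paralogues, Rpl22l1 rose by 0.67 (SE 0.10; limma adjusted p = 0.0017), with 135, 146 and 153 RPKM without CCL17, against 97.1 and 84.5 in the other set, while its parent Rpl22 was at 0.07 (limma adjusted p = 0.639). The calls of Rps29, Rps27, Rps27a, Rpl17, Rps25 and Rpl22l1 held whichever library of the comparison was left out. Rpl10a, Rplp2 and Rpl35a lost theirs without DKI replicate 1, and 7 more without at least 1 library.

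The remaining libraries of each set can be read beside these values. In the cultures with CCL17, Rps25 had 178, 155 and 146 RPKM, and in WT cultures it had 91.4 and 121. The with-CCL17 libraries therefore lay beside those without it, and the WT libraries beside the DKI libraries of their own set, for this gene. Rpl22l1 had 142, 132 and 138 RPKM with CCL17, against 71.2 and 81.4 in WT cultures. Markers of other cells moved with the same split. Summed B cell markers, 4 genes, were 1913 to 3988 RPKM in DKI cultures without CCL17, against 313 to 688 RPKM in DKI cultures of the WT set, and 4 of 4 were at 1 RPKM or more in both. Neutrophil markers, 4 genes, were 97.7 to 247 RPKM against 1.12 to 2.25, and monocyte markers, 7 genes, were 460 to 625 RPKM against 49.8 to 57.2. Their part in the differences of the ribosomal protein genes was not tested.

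**Figure D5:**
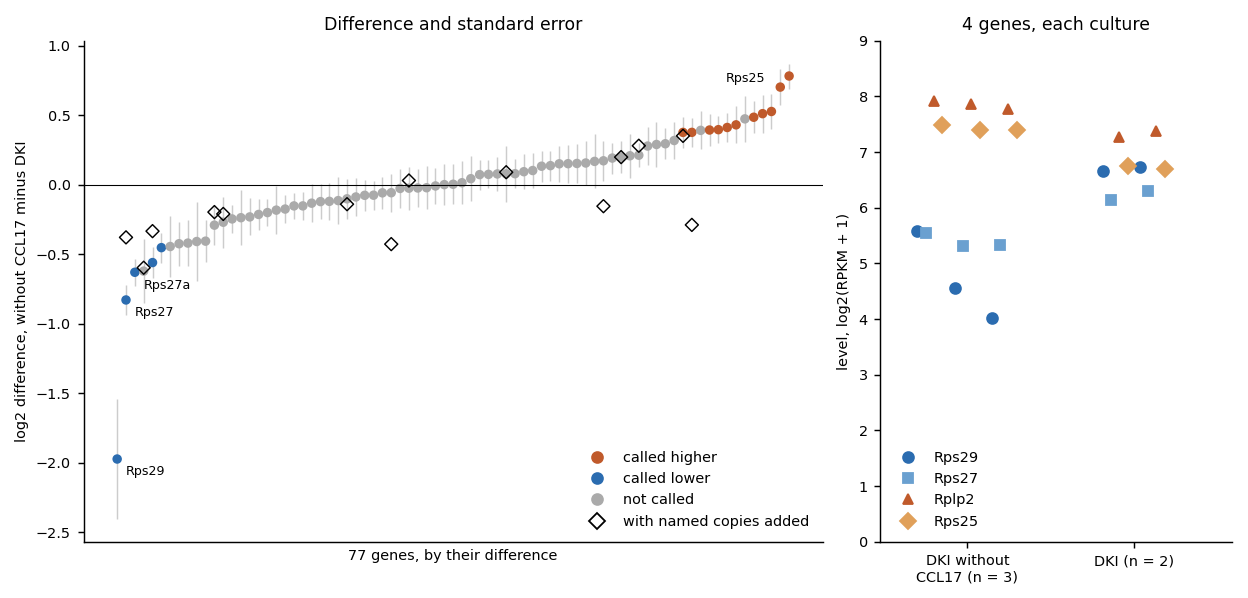
Left, log2 difference and standard error of each core gene, DKI Th17 cultures without CCL17 minus the DKI cultures of the WT set, with the 11 called higher in orange, the 5 called lower in blue and open diamonds where named copies were added. Right, level of 4 genes in each culture in log2(RPKM + 1): Rps29 and Rps27 lie lower, and Rplp2 and Rps25 higher, in every culture without CCL17.

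In the same comparison the ribosome assembly genes that were called were all higher. All counts here stand beside 15.4% of all genes called higher and 17.8% called lower. Of 41 rRNA processing genes, 12 rose and 0 fell, led by Gar1 (1.10, limma adjusted p = 0.00022), Fbl (1.09) and Gtpbp4 (0.69). Other TOP mRNAs had 4 of 17 that rose, among them Npm1 (0.70, limma adjusted p = 0.0012), Hnrnpa1 (0.58) and Pabpc1 (0.38), and 0 that fell. Initiation factors had 7 of 22 that rose, among them Eif1a (0.78), Eif3c (0.57) and Eif4g2 (0.45). Mitochondrial ribosomal proteins had 10 of 77 that rose, a share below that of all genes, and 0 that fell. RNA polymerase I genes had 0 of 14 that rose and 1 that fell, Taf1c (-0.62). Of 25 Myc and mTORC1 regulators 4 rose, Mycn (0.93) among them, and 4 fell, Sesn1 (-0.96) among them. Myc was at 0.09 (limma adjusted p = 0.562) and Larp1 at 0.19 (limma adjusted p = 0.066). On the p53 list 3 of 11 rose, among them Cdkn1a (0.88), and 1 fell.

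Because the TOP class is defined by the first bases of the mRNA, the windows around the transcription start were read from RefSeq promoters (GRCm38.p6). Promoters of 57 of the 77 core genes were in the table, 67 in all. The motif searched on the gene's strand was a C with at least 4 more bases that are C or T, starting within 5 bases of the annotated start. The 30-base windows run 15 bases before the start and 15 from it, in lower case with a matching tract in capitals. They are given for some members with a match and a large difference in a comparison, and for a pair with no match. Rpsa, Rpl36a, Rps12, Rps13, Rpl24 and Rpl10a, also among the largest differences of a comparison, had no match and are not printed. Of the 57 core genes, 27 had a match in some promoter and 30 had none. The windows printed are:
Rps27: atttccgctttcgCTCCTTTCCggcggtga
Rps6: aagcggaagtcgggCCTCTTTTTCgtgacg
Rps18: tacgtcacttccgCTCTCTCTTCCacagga
Rpl15: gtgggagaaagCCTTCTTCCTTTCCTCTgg
Rplp2: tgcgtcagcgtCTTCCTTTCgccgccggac
Rpl22l1: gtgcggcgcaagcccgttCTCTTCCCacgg
Rps25: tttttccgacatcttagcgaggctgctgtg
Rpl4: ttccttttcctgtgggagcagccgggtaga
They lie at chr3:90213634-90213663 (minus) for Rps27, chr4:86857353-86857382 (minus) for Rps6, chr17:33955651-33955680 (minus) for Rps18, chr14:18270972-18271001 (minus) for Rpl15, chr7:141447636-141447665 (plus) for Rplp2, chr3:28805493-28805522 (plus) for Rpl22l1, chr9:44407699-44407728 (plus) for Rps25 and chr9:64173372-64173401 (plus) for Rpl4.

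The tract was in 43.3% of the core promoters and in 18.3% of the 32851 promoters of the table. With the tract required to begin exactly at the first base the shares were 19.4% and 2.51%. On both strands of the promoter sequence before the start, GGAAG, the core of the site read by ETS factors, was in 83.6% of core promoters and 64.1% of all, and TATAAA, the TATA box, in 4.48% and 12.4%. ATGGC, the core of the site read by YY1, was in 52.2% and 40.5% when the 50 bases from the start were included. A match is a description of letters, and an annotated start may lie some bases from the one used. The 27 core genes with the tract had a median difference of -0.02 and the 30 without it 0.08 in DKI cultures without CCL17 relative to those of the WT set. In the same order, with the tract and then without it, the medians were 0.07 and 0.08 for DKI minus WT, -0.07 and -0.08 for CCL17 minus no CCL17, and 0.61 and 0.51 for DKI Th17 minus cord cells. These medians carry no test.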

How the data were processed

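RNA was sequenced from mRNA libraries (KAPA mRNA HyperPrep), per the labels' protocols. Per the submitters' processing notes, reads were aligned and counted per gene on mm10 with Subread and featureCounts. The sources used here give neither versions nor the treatment of multi-mapping reads. The authors deposited log2 values of RPKM, with 0.0001 standing for 0. Base 2 was checked from length-weighted sums of 1117240 to 1145860 per library. All per-sample columns were mapped to samples, the APC column (named MDC) as the only one left. Values were used as log2(RPKM + 1), so folds of low genes are understated. Depth was estimated from steps of low values. Of these, 74.1 to 76.2% lay within 0.1 of whole reads, against 20% if spread evenly, so exact counts were not recovered. Intervals rest on read numbers estimated from RPKM, GENCODE M21 exon length and this depth. They cover counting error only.

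Genes with at least 1 RPKM in 2 (DKI and WT, both DKI sets) or 3 (CCL17) libraries were tested with limma 3.58.1 in R 4.3.3 (eBayes with trend) and Benjamini-Hochberg adjustment over all genes tested, after a check on simulated data. For groups of 1 library, and for Th17 against cord, genes with at least 5 RPKM were described with a limit of 2-fold on RPKM + 1. Tables and figures used Python 3.11.15, pandas 2.3.3, SciPy 1.17.1, Biopython 1.88 and matplotlib 3.10.9. Gene IDs matched RefSeq for 20857 of 21073 genes. Shared windows came from GENCODE M21 transcripts and promoters from RefSeq. No sequence on chromosome 18 (Rps14, Rpl17) is printed, and some items are not reported here.

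Same-numbered cultures with and without CCL17 had correlations of residuals of 0.76, 0.50 and 0.51. Culture 2 with CCL17 and culture 3 without it correlated at 0.48, and culture 3 with CCL17 and culture 2 without it at 0.50. The residuals thus set replicate 1 apart and do not match 2 with 2 or 3 with 3. The labels do not say that replicate numbers pair the cultures. A fit with the replicate number as a block was run beside the fit without. The labels' treatment text and the series design differ on pertussis toxin for the Th17 cells, and the design text, without the toxin, was followed.

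The members and lists were chosen with earlier results of these data known. Named genes are the 5 highest and 5 lowest by mean level, the 5 largest differences of each sign per comparison, every paralogue with its parent, and a set of genes fixed by name. The other core genes named, such as those called between the DKI sets beyond those 5 and the copies, were added after their values were seen.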

Additional observations from a re-analysis of the deposited data

How the results depend on the processing

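Gene by gene, 494 values under an alternative kept their direction and side of the threshold or moved little, 44 lost their call with the same direction, 17 moved and 3 gained a call. The value of Rps15a between the DKI sets without CCL17 and DKI turned to -0.29 with named copies added, an alternative chosen after seeing the data, as were the WT substitution and the 11 genes with few shared windows. Between those sets, 11 higher and 5 lower became 4 and 23 with the length trend removed, where the median was -0.21, 11 lower with quantile normalization, and 0 and 0 among the 11 genes. Leaving out 1 library gave 4 to 8 higher, 4 to 7 lower. DKI and WT, and the 2 DKI sets, share only a replicate number (correlations of residuals of 0.42, and of 0.13 and 0.10). With a replicate block 6 were higher between the DKI sets, and the block changed no other count of calls, that for CCL17 included. The median of DKI against WT ran from -0.077 to 0.23 when 1 library was left out. For Th17 against cord the median was -0.11 centred, 0.26 with the length trend removed and 0.84 for the 11 genes, and a limit of 1.5-fold gave 39 higher and 2 lower. For cord against marrow monocytes the median was 0.33 centred and -0.14 for the 11 genes, with 7 higher and 1 lower at 1.5-fold. For APCs 1 was lower at 1.5-fold. The cause of these shifts was not tested. With 2 or 3 libraries a group and 1 for each myeloid group, small differences were not detectable.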
